A study of Mus musculus with 12 samples.

Results

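The regions described here are narrow H2A.Z peaks of wild-type spermatogenic cells that lay at gene ends, had no H2A.Z peak in Ino80-deleted cells and no INO80 peak. A region was taken from the wild-type H2A.Z list if it was at most 719 bp wide, shared no base with any peak of the Ino80 knockout H2A.Z list or of the INO80 list, and had an annotated start or end of a protein-coding gene within 1 kb (RefSeq, GRCm38.p6, the assembly that mm10 names). The regions were thus selected on the measured peaks of all 3 lists. This gave 979 regions of 33827 wild-type H2A.Z peaks, at 1038 of 21887 protein-coding genes. The study profiled mouse spermatogenic cells, taken at postnatal day 18, by chromatin immunoprecipitation and sequencing (ChIP-seq) after digestion of chromatin with micrococcal nuclease. Its ChIP groups are H2A.Z in Ino80cKO cells, where Ino80 is deleted with Stra8-Cre, a recombinase expressed from a gene that is active in premeiotic germ cells, H2A.Z in Ino80WT cells, and INO80 in cells labelled wild type. All are of mixed background, with 2 libraries a group and 2 input libraries for each. The labels do not say whether Ino80WT animals carried Cre or floxed alleles, and somatic cells that pass the isolation would keep Ino80 in the knockout. In a bulk preparation, H2A.Z in fewer cells and less H2A.Z per cell cannot be told apart.

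The histone variant H2A.Z takes the place of H2A in nucleosomes beside many gene starts, where it usually marks the nucleosomes that border the nucleosome-poor start site. INO80 is the ATPase of a remodelling complex that slides nucleosomes and can act on those that hold H2A.Z. In male meiosis genes of the recombination and sperm programmes are switched on, while the X and Y chromosomes are silenced.

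The 3 peak lists hold positions without scores: 26199 knockout H2A.Z peaks, 33827 wild-type H2A.Z peaks and 18139 INO80 peaks. Each list stands for 2 libraries, so no value has a replicate error, the depth behind the lists is unknown, and no test between genotypes was possible. Percentages carry 95% Wilson intervals, which cover counting error only. Membership rests on the absence of a peak in the knockout and INO80 lists, and an absent peak may be a weak one. Of all wild-type H2A.Z peaks 30.1% had no knockout partner. Among peaks up to 719 bp at gene ends the share was 37.2% (35.4 to 39.1%) of the 2632 without INO80, which are the 979 regions, and 13.9% (12.9 to 14.9%) of the 4607 with INO80, or 22.4% of all 7239. Away from gene ends it was 55.9% (55.1 to 56.8%) of 13434 INO80-free peaks of that width. These shares follow from the rule and are given as background.

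Promoter sequences were read for genes named for the widest regions or from the gene lists. The RefSeq promoter window runs from 250 bases before the start to 50 after it. Among those genes whose region covered at least 50% of a window, the 8 with the widest regions were read. Of these, 5 are printed, picked after their values were seen, because they show DNA under an H2A.Z peak found in wild-type cells alone and differ in CpG content. The sequences are from RefSeq (GRCm38.p6), read 5′ to 3′ on the strand of the gene, and the start site of the window is base 251. For Rec8 and Fez1 this start lies inside the gene, and the annotated gene start is another one (chromosome 14, 55618002 and chromosome 9, 36821398). Capitals mark matches on either strand to the CCAAT box (CCAAT), the GC box (GGGCGG), the TATA box (TATAAA), the cAMP response element (TGACGTCA), a YY1 motif (GCCATNTT), the E box (CACGTG) or the ETS core (CTTCCG).
Rec8, chr14:55617916-55618215, plus strand: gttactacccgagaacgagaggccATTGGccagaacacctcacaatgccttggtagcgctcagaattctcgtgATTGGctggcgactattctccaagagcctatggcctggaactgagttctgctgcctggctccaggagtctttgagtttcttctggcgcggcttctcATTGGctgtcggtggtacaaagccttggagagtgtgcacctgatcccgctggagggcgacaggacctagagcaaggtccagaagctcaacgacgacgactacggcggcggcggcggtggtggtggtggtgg
Ccnb1ip1, chr14:50795679-50795978, minus strand: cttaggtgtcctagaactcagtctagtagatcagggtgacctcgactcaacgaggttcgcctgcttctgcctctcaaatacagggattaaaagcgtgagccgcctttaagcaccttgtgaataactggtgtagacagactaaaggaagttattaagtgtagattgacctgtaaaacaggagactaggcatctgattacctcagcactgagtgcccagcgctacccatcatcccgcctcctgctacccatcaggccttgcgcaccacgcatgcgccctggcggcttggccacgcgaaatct
Fez1, chr9:36821641-36821940, plus strand: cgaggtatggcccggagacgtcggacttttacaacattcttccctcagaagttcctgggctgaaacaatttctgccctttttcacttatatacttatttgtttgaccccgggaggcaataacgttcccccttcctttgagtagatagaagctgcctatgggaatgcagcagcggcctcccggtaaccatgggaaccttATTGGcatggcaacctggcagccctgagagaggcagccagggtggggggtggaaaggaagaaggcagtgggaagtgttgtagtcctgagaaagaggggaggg
Qprt, chr7:127121980-127122279, minus strand: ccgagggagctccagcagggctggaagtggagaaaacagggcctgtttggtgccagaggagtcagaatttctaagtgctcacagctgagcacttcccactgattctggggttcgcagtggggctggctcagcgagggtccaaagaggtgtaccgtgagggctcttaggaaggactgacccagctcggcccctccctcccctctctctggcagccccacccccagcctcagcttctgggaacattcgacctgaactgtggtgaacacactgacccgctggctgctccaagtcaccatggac
Hpn, chr7:31115277-31115576, minus strand: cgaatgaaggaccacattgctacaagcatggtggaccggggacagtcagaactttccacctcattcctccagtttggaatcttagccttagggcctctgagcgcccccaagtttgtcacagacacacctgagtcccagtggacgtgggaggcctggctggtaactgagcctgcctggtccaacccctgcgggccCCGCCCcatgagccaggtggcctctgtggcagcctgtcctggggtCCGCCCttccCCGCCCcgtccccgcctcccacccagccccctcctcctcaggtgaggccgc
Rec8, which encodes a meiotic cohesin subunit, held 3 CCAAT boxes in the reverse orientation, and its ratio of observed to expected CpG was 0.716. The window of Ccnb1ip1, which encodes a protein of crossover formation, had a ratio of 0.646 and held none of the motifs. Fez1, a transport adaptor of neurons, had a ratio of 0.389 and 1 CCAAT box. Qprt, an enzyme of NAD synthesis, had a ratio of 0.256 and none of the motifs, and Hpn, a membrane serine protease, had 0.362 with 3 GC boxes. A match describes the letters of the window and is not evidence of a bound site. The other 3 promoters read were those of Stx5a, Il1r2 and Zfp640.

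Most of the regions lay at gene starts. The strand was known for 823 of the 1038 genes, which matched an entry in the RefSeq promoter table; where a gene has several windows, the one nearest its annotated start was used. Distances below are from the annotated gene start unless the window is named. Both starts were the same base for 364 of 671 pairs of a region and a gene, and the region lay on the other side of the nearest window start in 66 pairs. Of the 771 regions whose gene ends could be read in this way, 636 lay at a start (82.5%, 79.6 to 85.0%) and 135 at 3′ ends alone, so the name promoter holds for most but not all of them. Among peaks of the same width limit at gene ends, starts made up 92.2% (89.6 to 94.3%) of those that were wild type only with INO80, 89.4% (87.6 to 90.9%) of those shared by both genotypes without INO80, and 96.6% (96.0 to 97.2%) of those shared with INO80. Another annotated start lay within 1 kb of 7 of the 135 regions at 3′ ends. Those at 3′ ends had a median width of 244 bp and lay a median of 10008 bp from the nearest knockout H2A.Z peak, against 204 bp and 2940 bp for those at starts. Without INO80, 48.9% (43.1 to 54.8%) of peaks at 3′ ends and 35.0% (32.8 to 37.2%) of peaks at starts had no knockout partner.

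Around the annotated start the regions fell on both sides. Their centres lay upstream of the annotated start in 306 of 636 cases (48.1%, 44.3 to 52.0%). This share was 28.4% (24.5 to 32.6%) for wild-type-only peaks with INO80, 34.6% (31.9 to 37.3%) for shared peaks without INO80 and 19.6% (18.2 to 21.0%) for shared peaks with INO80. The first 400 bp downstream of the start, where the first nucleosomes of the gene lie, held 32.1% (28.6 to 35.8%) of the regions, 45.0% (40.5 to 49.4%) of wild-type-only peaks with INO80, 54.9% (52.0 to 57.7%) of shared peaks without INO80 and 64.6% (62.9 to 66.3%) of shared peaks with INO80. Among peaks under 250 bp (median widths 174 and 191 bp), upstream centres made up 50.2% (45.4 to 55.1%) of the regions and 49.8% (43.8 to 55.8%) of shared peaks without INO80. At that width these intervals overlapped, while the first 400 bp downstream held 28.8% (24.6 to 33.3%) of the regions and 43.0% (37.2 to 49.0%) of shared peaks without INO80. Measured from the start of the nearest promoter window, an alternative added after seeing the data, upstream centres made up 57.4% (53.5 to 61.2%) of the regions, 35.5% (31.3 to 39.9%) of wild-type-only peaks with INO80, 42.9% (40.1 to 45.7%) of shared peaks without INO80 and 25.1% (23.6 to 26.7%) of shared peaks with INO80.

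**Figure D1:**
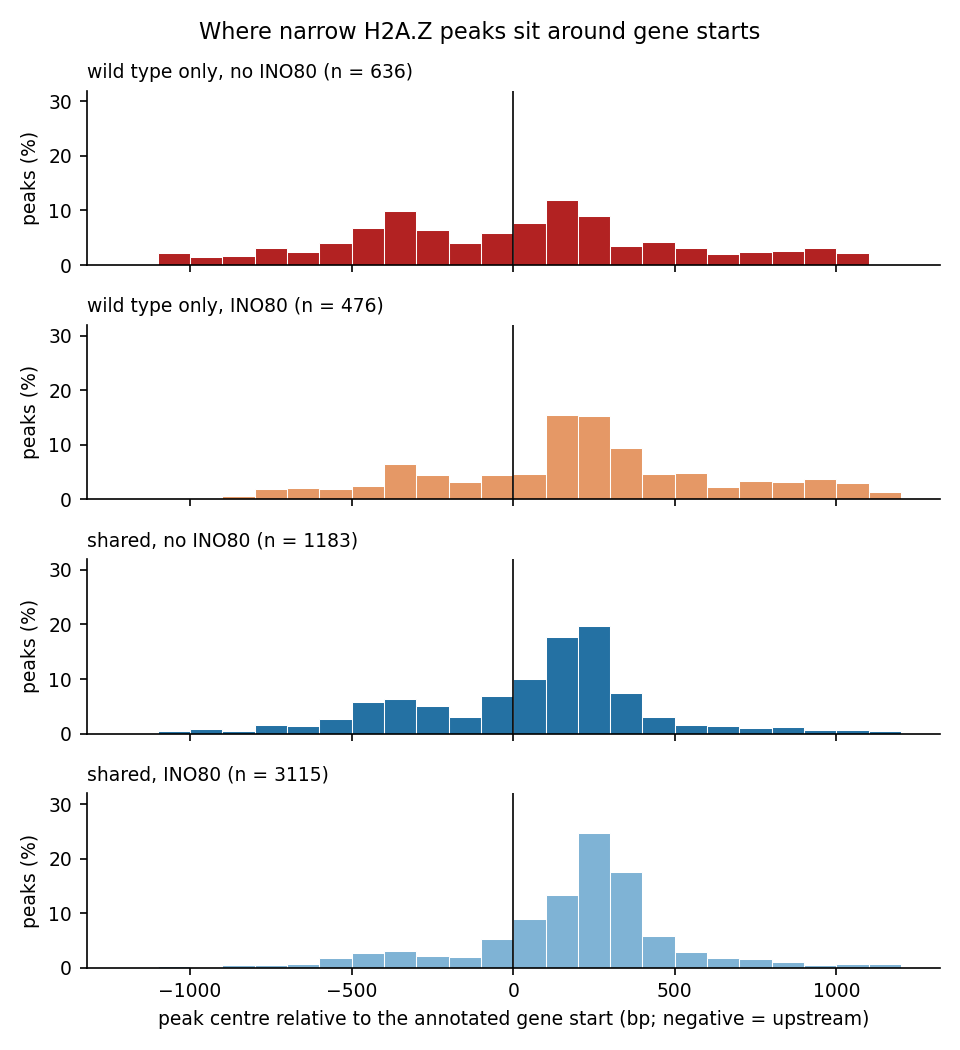
Position of narrow H2A.Z peaks around annotated gene starts: the x axis gives the distance of the peak centre from the annotated start in bp (negative is upstream), the y axis the percentage of the peaks of each class in 100 bp bins. The centres of the 636 wild-type-only regions without INO80 spread over both sides of the start (48.1% upstream), while the 3115 shared peaks with INO80 gather downstream of it.

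The regions comprised 2 arrangements, separated by whether a shared peak lay beside them. A wild-type H2A.Z peak with a knockout partner lay within 1 kb of 349 regions (35.6%, 32.7 to 38.7%), called flanking here, and 630 were lone. A flanking region was separated from its shared neighbour by a median of 355 bp. The split caps this gap at 1 kb, and no region lay closer than 251 bp to another wild-type peak. Whether that lower limit comes from peak calling is not known. The flanking region was the narrower of the pair in 308 of 349 cases, with a median width of 189 bp against 445 bp for the neighbour. The neighbour overlapped INO80 in 247 of 349 cases (70.8%, 65.8 to 75.3%). This is near the proportion among all shared peaks up to 719 bp at gene ends, 3966 with INO80 and 1653 without. Neighbours were not limited to that width. Flanking regions at starts had their centre upstream in 73.1% of 264 cases (67.5 to 78.1%), and lone ones in 30.4% of 372 (25.9 to 35.2%). From the nearest window start the shares were 78.8% for flanking and 42.2% for lone regions. A flanking region cannot lie on its shared neighbour, and shared peaks at starts often lay in the first 400 bp downstream. How far the split itself sets this contrast was not tested. This contrast was not particular to the regions, as a split by any other wild-type H2A.Z peak within 1 kb showed. Shared peaks without INO80 had upstream centres in 57.7% with such a neighbour and 19.8% without one. For shared peaks with INO80 these shares were 30.3 and 12.5%, and for wild-type-only peaks with INO80 35.2 and 19.8%. The flanking form is illustrated by Ift57, an intraflagellar transport gene (261 bp, centre at -441 bp from the start, 276 bp from a knockout peak and 312 bp from an INO80 peak), and by Mrpl42, a mitochondrial ribosomal protein gene (504 bp, centre at -720.5 bp, 523 bp from a knockout peak).

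Promoters of the lone and flanking regions differed in CpG content, which the rule did not use. A promoter window was called CpG-rich at a GC content of at least 50% and an observed to expected CpG ratio of at least 0.6, and 45.8% of 17492 protein-coding genes with a window met this. Genes with a flanking region at their start were CpG-rich in 70.9% of 285 cases (65.4 to 75.8%), with a median ratio of 0.772. Genes with a lone region at their start were CpG-rich in 21.2% of 373 cases (17.3 to 25.6%), with a median ratio of 0.411. Over all regions the share was 42.7% of 658 genes (39.0 to 46.5%), against 73.3% (69.3 to 76.9%) for wild-type-only peaks with INO80, 48.6% (45.9 to 51.4%) for shared peaks without INO80 and 73.3% (71.8 to 74.9%) for shared peaks with INO80.

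The contrast was not confined to peaks missing in the knockout. With peaks divided by any other wild-type H2A.Z peak within 1 kb, those of the 979 regions that had none were CpG-rich at 19.4% of 346 genes (15.5 to 23.9%), and solitary shared peaks without INO80 at 30.5% of 754 genes (27.3 to 33.9%). Solitary peaks with INO80 were CpG-rich at 67.1% (60.7 to 72.9%) of genes when wild type only and at 68.8% (66.7 to 70.8%) when shared. Low CpG content thus went with solitary peaks that lacked INO80, in both the wild-type-only and the shared class. Among INO80-free peaks under 250 bp at starts, 69.6% (64.3 to 74.3%) of those at CpG-poor and 52.7% (47.5 to 57.8%) of those at CpG-rich promoters had no knockout partner.

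**Figure D2:**
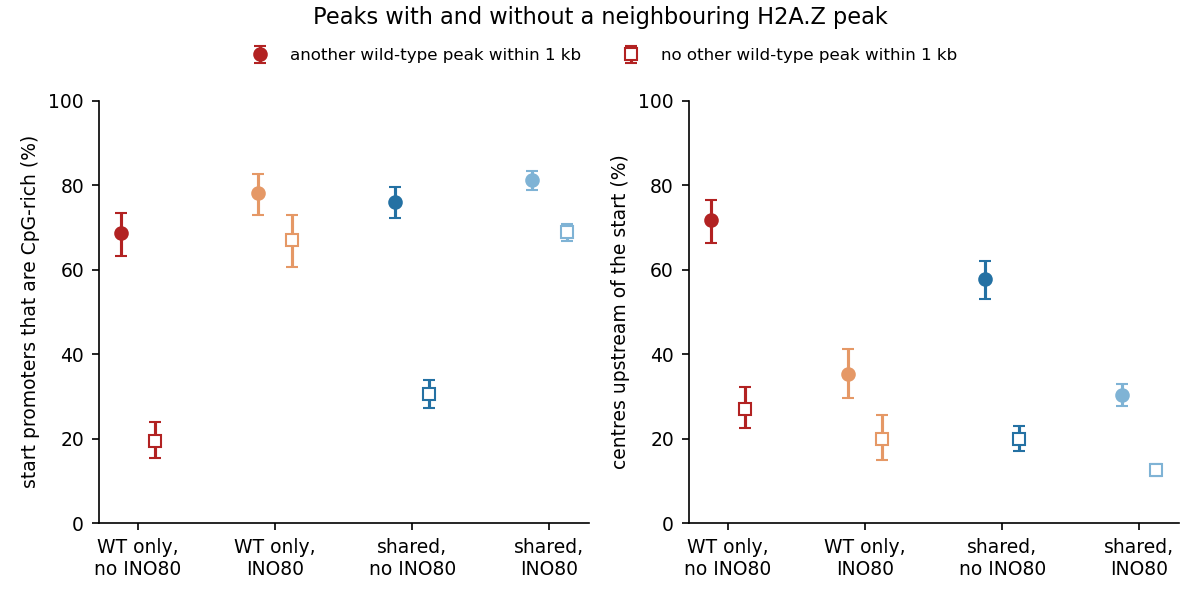
Percentage of start promoters that are CpG-rich (left) and of peak centres upstream of the start (right), for peaks up to 719 bp at gene ends in each class, with 95% Wilson intervals. Filled circles are peaks with another wild-type H2A.Z peak within 1 kb and open squares peaks with none. Solitary regions without INO80 are CpG-rich in 19.4% of genes when wild type only and 30.5% when shared.

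**Figure D3:**
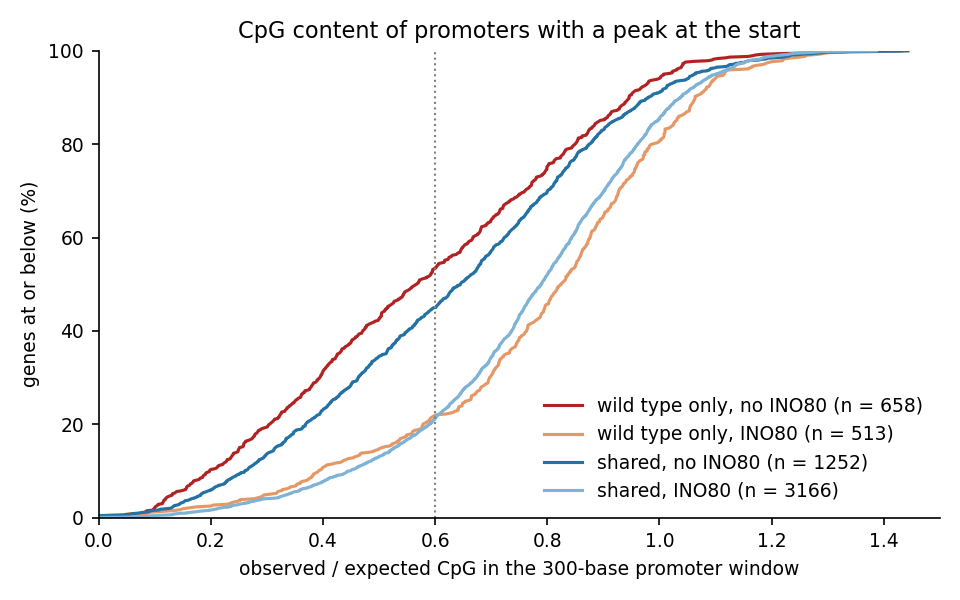
Cumulative percentage of genes (y axis) by observed to expected CpG in the 300-base promoter window (x axis) for genes with a peak of each class at the start. The dotted line is the threshold of 0.6. The curves of both classes without INO80 lie to the left, with medians of 0.567 for the wild-type-only and 0.645 for the shared class.

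The CCAAT box was found in 48.0% of the 658 windows (44.2 to 51.8%), against 39.2% of all protein-coding windows. It was found in 50.6% for shared peaks without INO80, 41.7% for wild-type-only peaks with INO80 and 43.1% for shared peaks with INO80. The GC box was found in 48.2% (44.4 to 52.0%), against 46.3% of all windows. It was found in 70.6% for wild-type-only peaks with INO80, 55.1% for shared peaks without INO80 and 67.5% for shared peaks with INO80. The YY1 motif, named for a DNA-binding protein that can associate with the INO80 complex, was found in 6.23% (4.63 to 8.34%) of windows. It was found in 12.7% (10.1 to 15.8%) for wild-type-only peaks with INO80, in 5.59% for shared peaks without INO80, in 10.8% for shared peaks with INO80 and in 6.65% of all windows. The TATA box was found in 6.99% (5.28 to 9.20%) against 13.3% of all windows. Its share was also low for wild-type-only peaks with INO80 (9.16%), shared peaks without INO80 (8.71%) and shared peaks with INO80 (7.96%). The ETS core stood in 27.4%, the E box in 8.05% and the cAMP response element in 2.58%, against 21.5, 7.91 and 2.33% of all windows. In the other classes, in the order of the TATA box, the ETS core stood in 32.9, 28.9 and 33.6%.

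The regions were narrow. Their widths ran from 147 to 714 bp with a median of 207 bp, and 452 of 979 were under 200 bp (46.2%, 43.1 to 49.3%). Medians were 245 bp for wild-type-only peaks with INO80, 382 bp for shared peaks without INO80 and 475 bp for shared peaks with INO80. Width and absence from the knockout list moved together: of INO80-free peaks 147 to 169 bp wide 72.9% (68.2 to 77.2%) had no partner, and of those 500 to 719 bp wide 10.9% (8.59 to 13.7%). With INO80 these shares were 54.8% (48.3 to 61.2%) and 3.81% (3.03 to 4.77%). At 147 bp, the shortest width in each of the lists, a peak is as long as the DNA of a single nucleosome core. Whether this width is a limit set in peak calling is not known. The part of peak strength in the missing partners was not tested, since the lists give no scores.

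**Figure D4:**
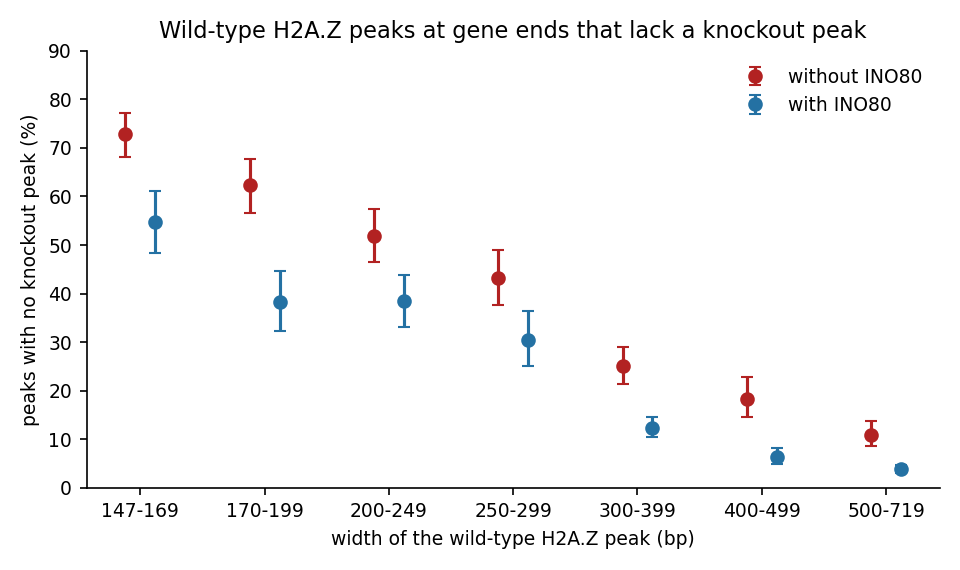
Percentage of wild-type H2A.Z peaks at gene ends with no overlapping knockout peak (y axis) by peak width in bp (x axis), without and with INO80, with 95% Wilson intervals. The share falls from 72.9% in the narrowest to 10.9% in the widest INO80-free peaks and is lower with INO80 in every width group.

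Distances to the nearest remaining peaks varied widely. The nearest knockout H2A.Z peak lay 4 to 2056814 bp away (median 4764 bp), within 1 kb of 379 regions and over 10 kb from 383. The nearest INO80 peak lay at a median of 10336 bp, and 346 regions (35.3%, 32.4 to 38.4%) were over 10 kb from both. Of the 630 lone regions 34 had a knockout peak within 1 kb all the same, at a median of 212 bp, and 32 of the 33 distinct knockout peaks beside them overlapped no wild-type peak. The definition of lone nearly fixes this count, since a wild-type peak that overlapped such a knockout peak would itself be shared and close by. In the lists, these places held a peak of each genotype a short way apart. Whether H2A.Z was displaced between genotypes was not tested. Examples are Psmc3ip, a cofactor of meiotic strand exchange (170 bp, knockout peak 213 bp away), Tex101, a germ cell surface protein (284 bp, 353 bp away), and Spag17, a protein of the sperm axoneme (155 bp, 260 bp away). 

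Outside multigene families and predicted genes, the 10 widest regions lay at genes of diverse function. The widest was at Aplnr, which encodes the apelin receptor (chromosome 2, 85137106 to 85137819, 714 bp, 86678 bp from a knockout peak). It was followed by the region at the start of Stx5a, a Golgi syntaxin, and the 3′ end of Wdr74 (chromosome 19, 8741482 to 8742192, 711 bp). Tmem51 had 695 bp at its 3′ end, and Hpn 694 bp over its start. Fez1 (chromosome 9, 36821418 to 36822103, 686 bp) and Qprt (chromosome 7, 127121665 to 127122335, 671 bp) held their regions at the start. The others were at Zfp628 (668 bp, 3′ end), Pla2g12b (666 bp, 9 bp from a knockout peak), Gpatch1 (659 bp) and Mos (644 bp). Mos encodes a kinase of germ cell meiosis. Of the genes with these regions Aplnr, Stx5a, Fez1, Qprt and Mos had no knockout H2A.Z peak at either end.

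With the same genes left out, the 10 regions farthest from any knockout H2A.Z peak included several at neuronal and X-linked genes. Slitrk1, a neuronal membrane protein, had a region of 429 bp centred 256 bp downstream of its start (chromosome 14, 108913769 to 108914197), with the nearest knockout peak 2056814 bp and the nearest INO80 peak 2760407 bp away. Cntnap5b and Cntnap5c, members of the same family of neuronal surface proteins, had regions of 188 and 149 bp that lay 1675915 and 457171 bp from a knockout peak. Nrxn3, a presynaptic adhesion gene, had 516 bp at 361637 bp. X-linked genes among them were Cfap47 (173 bp, 933385 bp from a knockout peak), Gpr165 (147 bp, 616977 bp) and Rhox8 (151 bp, 289710 bp). Bank1, a B cell adaptor (230 bp, 343220 bp), and Oprk1, the kappa opioid receptor gene (227 bp, 328012 bp), were also among them. None of the genes named here had knockout H2A.Z or INO80 at an end.

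At the level of genes, 547 of the 1038 (52.7%, 49.7 to 55.7%) had a knockout H2A.Z peak elsewhere within 1 kb of an end and 491 had none. INO80 lay elsewhere at an end of 474 genes (45.7%, 42.7 to 48.7%), and 432 had neither. The same shares over all protein-coding genes are not given here, so these counts cannot be called high or low. Genes with a region at the start and no knockout H2A.Z were CpG-rich in 19.9% of 331 cases (16.0 to 24.6%) and held wild-type INO80 at an end in 8.46% (28 of 331). Those with knockout H2A.Z at an end were CpG-rich in 65.7% of 327 cases (60.4 to 70.7%) and held wild-type INO80 at an end in 74.6% (69.6 to 79.0%). More than 1 region was found at 49 genes. By summed width, and again outside multigene families and predicted genes, these were led by Tmub1 (534 and 297 bp), Bpi, a lipid-binding host defence protein (467 bp at the start and 352 bp at the 3′ end), Prdm6 (452 and 365 bp), Brinp2 (446 and 261 bp) and Ccdc190 (343 bp at the start and 351 bp at the 3′ end). The others named by the rule were Sash1 (458 and 224 bp), Tm4sf5 (526 and 147 bp), Ndufa4l2 with regions of 318, 173 and 164 bp, Nrsn2 (326 and 318 bp) and the lens crystallin gene Crygf (473 and 147 bp).

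Gene lists were read against the 4.74% of protein-coding genes, and the 7.57% of the 13709 genes with wild-type H2A.Z at an end, that held a region. Of all 1038 genes with a region, 491 (47.3%) had no knockout H2A.Z at an end, which is the base for such counts in the lists. Cilium and axoneme genes held a region in 17 of 157 (10.8%, 6.87 to 16.7%; 12.9% of those with wild-type H2A.Z), and 10 of the 17 had no knockout H2A.Z at an end. The widest of the 17 were at the radial spoke genes Rsph4a (492 bp, 45398 bp from a knockout peak) and Rsph6a (421 bp, centred at -21 bp from the start, 29666 bp from a knockout peak but 190 bp from an INO80 peak) and the microtubule protein genes Tekt3 (301 bp, centred 174 bp downstream) and Tekt2 (289 bp, centred 184 bp downstream of the annotated start and at -69 bp from the window start). Tekt2 had knockout H2A.Z at an end, 3338 bp from the region, and the other 3 genes had none. Cytosolic ribosomal protein genes held one in 9 of 87 (10.3%, 5.54 to 18.5%; 11.8% of those with wild-type H2A.Z), of which 3 had no knockout H2A.Z. All 5 of those with a known strand had it upstream of the start, among them Rps26 (231 bp), Rpl18 (190 bp) and Rps23 (176 bp), and Rpl32 had a region of 292 bp. Ribosomal protein genes have many near-identical copies in the genome, and whether this affects their short peaks was not tested.

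Meiotic genes held a region in 5 of 57 (8.77%, 3.81 to 18.9%; 10.2% of those with wild-type H2A.Z), with no knockout H2A.Z at 3. These were Ccnb1ip1 (chromosome 14, 50795323 to 50795942, 620 bp, centred 95.5 bp downstream of the start, 8929 bp from a knockout peak), Rec8 (chromosome 14, 55617820 to 55618342, 523 bp, centred 79 bp downstream of the annotated start and at -85 bp from the start of the printed window, 16994 bp) and Terb2, which helps attach meiotic telomeres to the nuclear envelope (391 bp, 32887 bp). The regions at Psmc3ip and Hfm1 had a knockout peak close by, that of Hfm1, a crossover helicase gene, being 166 bp wide and 449 bp from it. The piRNA pathway, which silences transposons in germ cells, had 3 of 30 genes (interval 3.46 to 25.6%; 11.5% of those with wild-type H2A.Z): Spocd1 (365 bp), Tdrd7 (267 bp) and Tex19.1 (174 bp, 37 bp from an INO80 peak). Spermiogenesis genes had 6 of 88 (6.82%, 3.16 to 14.1%), or 15.0% of the 40 with wild-type H2A.Z, among them Izumo4 (306 bp), Tex101, the sperm calcium channel gene Catspere1 (256 bp) and Spata6 (244 bp). Spermatogonial genes had 1 of 32 (4.00% of those with wild-type H2A.Z), Bcl6b (480 bp, 394 bp from a knockout peak).

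Of the remaining lists, none had an interval above the 4.74% of all protein-coding genes. Among genes with wild-type H2A.Z at an end, against 7.57% of all such genes, the share was 11.8% of 17 somatic testis cell genes, 14.3% of 84 cytokine and receptor genes, 10.8% of 37 CD genes and 16.7% of 18 keratin and epidermal genes. It was 8.52% for solute carriers, 8.06% for ion channels, 7.14% for Gpr and Adgr receptors and 6.53% for Zfp genes. It was 5.88% for the INO80, SRCAP and H2A.Z machinery, 5.56% for the polycomb complexes, 5.41% for the proteasome, 4.29% for mitochondrial ribosomal proteins, 3.33% for homeobox and other patterning factors and 1.77% for synaptic genes. Markers of somatic testis cells held a region at 2 of 35 genes, the Sertoli cell gene Fshr (197 bp, 108531 bp from a knockout peak) and the macrophage gene Mrc1 (177 bp, 39076 bp), and the part of somatic cells in these regions was not tested. Homeobox and other patterning factors held a region in 6 of 219 (2.74%, 1.26 to 5.85%), of which Hoxa9, Lhx2, Pax2 and Nkx6-1 had it at the 3′ end. Synaptic genes held one in 2 of 155 (1.29%, 0.355 to 4.58%), Nrxn3 and the nicotinic receptor subunit gene Chrnb2 (222 bp). Olfactory and vomeronasal receptor genes held one in 9 of 1463 (0.615%, 0.324 to 1.17%), and these made up 32.1% of the 28 such genes with any wild-type H2A.Z. Cytokine and receptor genes had 12 of 215 (5.58%), led by the decoy receptor gene Il1r2 (629 bp), solute carriers 23 of 387 (5.94%), led by the vesicular glutamate transporter gene Slc17a7 (592 bp, 3′ end), and Zfp genes 22 of 397 (5.54%), led by Zfp628 and Zfp640 (448 bp). Ion channels had 10 of 195 (5.13%), Gpr and Adgr receptors 4 of 102 (3.92%), CD genes 4 of 100 (4.00%), keratins and epidermal genes 3 of 152 (1.97%) and mitochondrial ribosomal proteins 3 of 75 (4.00%). The proteasome had 2 of 39 (Psmb6 and Psmc5), the polycomb complexes 2 of 41 (Kdm2b with 437 bp and L3mbtl2 with 283 bp) and the INO80, SRCAP and H2A.Z machinery 2 of 34 (Ruvbl1, an ATPase subunit shared by these complexes, with 287 bp, and Actb with 205 bp).

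**Figure D5:**
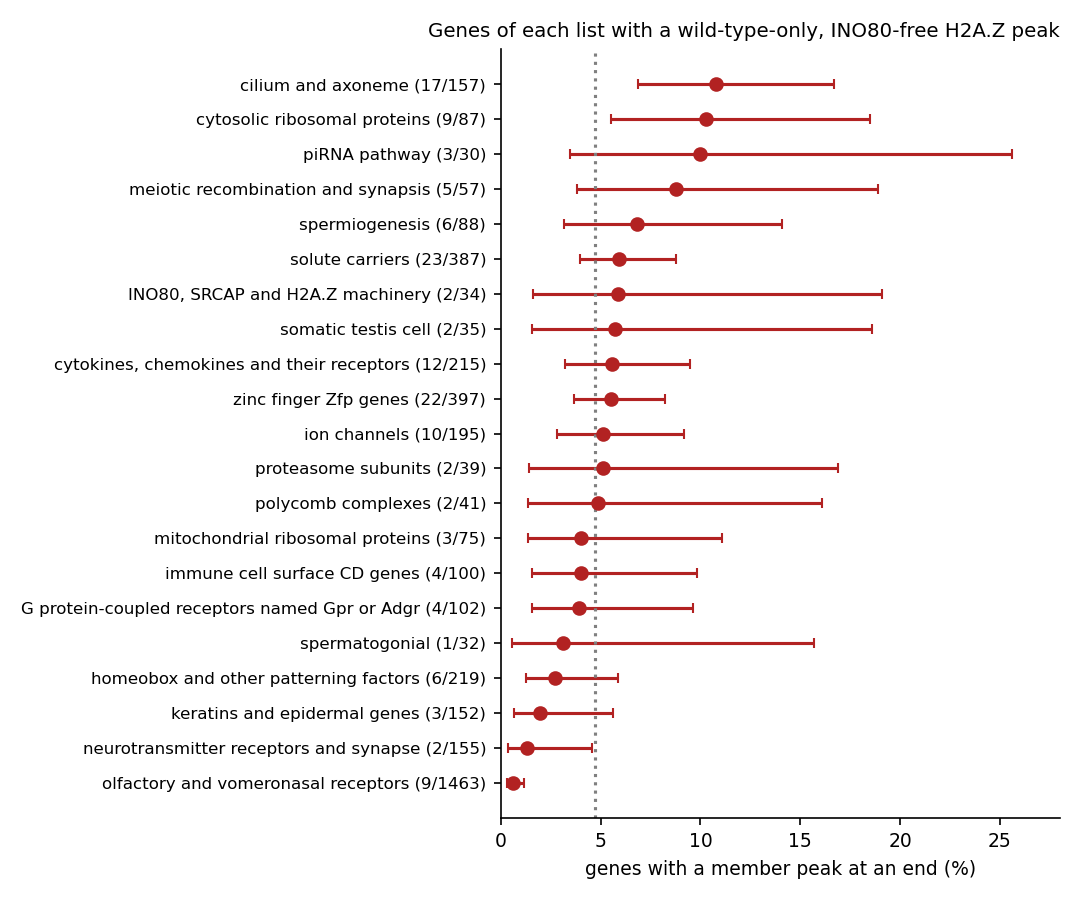
Percentage of the genes of each list with a wild-type-only, INO80-free H2A.Z region at an end (x axis), with 95% Wilson intervals and, in brackets, the count and the number of genes matched. The dotted line is the 4.74% of all protein-coding genes. Most intervals include it, those of cilium and cytosolic ribosomal protein genes lie above and those of synaptic and olfactory receptor genes below. Among genes with wild-type H2A.Z at an end the share is 7.57%, and 32.1% for olfactory and vomeronasal receptor genes. Shares on that base are not drawn and have no interval.

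The X chromosome, which is silenced in meiotic prophase, carried 61 of the 979 regions (6.23%, 4.88 to 7.92%). It carried 3.39% (2.97 to 3.86%) of the other narrow peaks at gene ends, 5.32% (4.34 to 6.51%) of shared peaks without INO80 and 4.41% of protein-coding genes. Of INO80-free narrow peaks at gene ends, 40.9% (33.4 to 49.0%) on the X chromosome and 36.8% (35.0 to 38.8%) on autosomes had no knockout partner, and these intervals overlap. X-linked regions stood apart from other H2A.Z: 49 of 61 (80.3%, 68.7 to 88.4%) were over 10 kb from a knockout peak, against 36.1% (33.1 to 39.3%) of autosomal regions. H2A.Z peaks are sparse on the X chromosome in the wild type too, with 520 of 33827. On the Y chromosome 5 of the 9 wild-type peaks were among the regions, at Rbmy, an RNA-binding protein gene of germ cells, and at 4 predicted genes (Gm21677, Gm21693, Gm10352 and Gm10256). Their promoter windows all had a GC content of 47.0% and a CpG ratio of 0.504. They belong to a multicopy family, to whose members short reads may not be assigned with certainty.

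The limits of the rule left few peaks in doubt by width. Aplnr (714 bp) was just inside the limit of 719 bp, as were Stx5a with Wdr74 (711 bp) and Olfr314 (709 bp), and Ptges (744 bp), Caly (751 bp) and Npy2r (753 bp) were just outside among 19 such wider peaks. The peaks nearest to a knockout peak without touching it were at Trpc5 and Rtl4 (4 bp), 4930579F01Rik (4 bp) and Cdc42ep5 (6 bp), and the smallest overlaps that left a peak out were at Nmu (2 bp), Clec2d (4 bp) and Prps1l1 (6 bp). Nearest to INO80 were Tmem259 (17 bp), Timm9 (19 bp) and Prtn3 (26 bp), while overlaps of 7 bp at Zswim3, 10 bp at Ocstamp and 25 bp at Lpxn left those peaks out. In distance to a gene end Ccdc60 (997 bp), Tyrp1 (995 bp) and Tmem160 (990 bp) were just inside, and Ccin (1004 bp), LOC115488130 (1008 bp) and Slc26a5 (1008 bp) just outside.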

How the data were processed

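ChIP-seq peak lists were available for H2A.Z in Ino80cKO cells, H2A.Z in Ino80WT cells and INO80. Each was deposited by the authors as chromosome, start and end of a peak in bp, a coordinate with no score, so this measure carries no normalization. The submitters' processing notes list Bowtie2, SAMtools, deepTools, MACS2 and mm10, without roles; the threshold, control and way of combining the 2 libraries of a group were not given in these sources. Input libraries were not analysed here. Samples were grouped by title. Gene ends came from RefSeq (GRCm38.p6), strand and promoter sequence from the RefSeq promoter table. Peaks overlap if they share 1 bp, and overlap counts were equal to those of bedtools 2.31.1. The code was tested on simulated data. Lone and flanking regions were separated at 1 kb, a division made after seeing the data. Values are counts and shares without a test, because a list has no replicates and its peaks are not independent.

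The members, the 21 gene lists, the 7 motifs and the alternatives were chosen with earlier results of these data known. Genes named are those with the 10 widest regions, the 10 farthest from a knockout peak, up to 10 genes with more than 1 region, up to 4 per list by width and 3 on each side of a threshold; genes with a predicted or Rik name and those in multigene families were skipped outside the lists and thresholds. Spag17, Hfm1, Nkx6-1 and the other genes named as examples outside this rule were chosen after their values were seen. Some genes that the rule names are not reported here. The tools were pandas 2.3.3, scipy 1.17.1, numpy 2.4.6 and matplotlib 3.10.9 under Python 3.11.15.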

Additional observations from a re-analysis of the deposited data

How the results depend on the processing

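Of 104 values under alternative settings, 53 stayed within the 95% interval of the main share, or within 1.5 times the main count, and 51 moved; the cause was not tested. Flanking regions exceeded lone ones in CpG-rich promoters in 15 of 15 settings and in upstream centres in 14 of 14, by at least 28.9 points each. With 3 kb windows there were 1507 regions at 1641 genes, with peaks at or above the median width 88 at 97 genes, with the wild-type list cut to the knockout list's length by width 392 at 423, at annotated starts alone 636 at 658, and 642 genes when another gene end within 2 kb barred a gene.

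The share of INO80-free peaks with no knockout partner, 37.2%, was 26.2% when a knockout peak within 500 bp counted, 48.3% when a partner had to cover 50% of the peak, 33.3% with 500 bp windows, 41.9% with 3 kb windows, 12.3% at or above the median width, 30.9% with no width limit, 22.8% with the cut list and 35.0% at starts alone. With INO80 the share of 13.9% was 9.20, 24.9, 11.6, 16.8, 4.07, 6.15 and 8.65% under the first 7 of these settings in that order, and 16.7% when INO80 within 500 bp counted as bound; INO80-free peaks had the larger share in each. The share of member genes that had knockout H2A.Z, 52.7%, was 33.1, 62.9, 41.9, 64.4 and 39.2% under the first 5, 46.3% with the cut list, 46.0% at starts alone, 41.2% with INO80 within 500 bp and 46.6% at genes without a close neighbour.

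CpG-rich promoters of flanking regions (70.9%) made up 55.1% with knockout peaks within 500 bp, 60.5% with 50% cover, 52.1% with INO80 within 500 bp, 78.4% with 500 bp windows and 46.7% at a CpG ratio of 0.75 and GC of 55%. For lone regions (21.2%) they made up 8.31% at that threshold, 37.8% at or above the median width and 15.2% at genes without a close neighbour. Upstream centres of flanking regions (73.1%) were 59.3% with 50% cover, 64.2% with INO80 within 500 bp, 80.7% with 500 bp windows, 81.8% at or above the median width, 78.6% with the cut list and 78.8% from the start of the nearest promoter window. For lone regions (30.4%) they were 37.4% with 3 kb windows, 17.1% at or above the median width and 42.2% from the start of the nearest promoter window. Values at or above the median width rest on few cases. They are 9 of 11 flanking and 6 of 35 lone regions for upstream centres. For CpG-rich promoters of lone regions they are 14 of 37 genes. The split distance, the CpG threshold, the choice of promoter window and the restriction to starts were chosen after seeing the data. No paired analysis was possible because each group has 1 list without values per library, and for the same reason no replicate could be left out. Depth is unknown, so a missing peak cannot be told from one under the authors' threshold.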
